A study of Homo sapiens with 4 samples.

Results

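FOS, FOSB, FOSL2, NR4A1, NR4A2 and DUSP1 are immediate early genes, and they were followed here in MEG-01 cells with and without depletion of OGT. The 6 genes were chosen by name from a table of 426 genes that the authors had called changed between these same libraries, so their higher level after depletion was part of the choice and is described below without a test. All 6 were found in the table. MEG-01 is an established human megakaryoblastic line that sheds platelet-like particles. Total RNA was sequenced from 2 wild-type (WT) libraries and from 2 libraries titled CR_OGT, whose genotype is given as OGT depletion and which the series' design text describes as a CRISPR/Cas9 knockdown. No clone, guide or other treatment is named in the sources used here, and all cells shared the same RPMI-based serum medium. The labels do not say that replicates were separate cultures, so the spread between libraries may be technical only.

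Immediate early genes are transcribed within minutes of a growth factor, cytokine, calcium, cAMP or stress signal, without new protein synthesis, and their transcripts are short-lived. Kinases of the MAPK cascades and protein kinase A act on factors already bound at these promoters, such as SRF with its ternary complex partners and CREB. FOS proteins pair with JUN proteins to form the transcription factor AP-1, the NR4A proteins are orphan nuclear receptors, and DUSP1 is a nuclear phosphatase that switches MAP kinases off again. In the megakaryocytic lineage MAPK signalling lies downstream of the thrombopoietin receptor.

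The libraries held 17643474 to 19883586 counted reads. OGT, the targeted gene and the enzyme that attaches O-GlcNAc to proteins, was measured at 16012 and 19190 normalized read counts in the WT libraries and at 9124 and 12185 in the depleted ones, so its transcript was lower in both depleted libraries. A normalized read count is the deposited count divided by a size factor per library. Some markers of blood lineages were among the listed genes as well. The authors called 3.24% of about 13154 tested genes in either direction, and how many of the markers were tested is not known. Nothing about a lineage is read from a list with 1 gene in the table. In the table were 4 of 8 mast cell and basophil markers, of which 3 were higher after depletion and 1 lower. TPSAB1, TPSB2 and CPA3 had log2 fold changes of 1.95, 1.68 and 1.19. FCER1A was lower, at 245 and 209 FPKM (reads scaled to gene length and to the counted reads of the library) in WT and 146 and 134 after depletion. Because FCER1A was the most abundant of the 4, their summed level was 217.0 to 252.7 FPKM in WT and 159 to 176 after depletion. The erythroid list had 1 of 10, HBE1, at 45.4 to 59.3 FPKM in WT and 157 to 196 after depletion, and the lymphoid list 1 of 8, GZMA, at 1.29 to 1.84 and 6.05 to 7.82. The monocyte and granulocyte list had 1 of 10, ITGAM, at 47.4 to 54.0 FPKM in WT and 35.3 to 40.2 after depletion. The megakaryocyte list had 1 of 16, TUBB1, at 1.88 to 2.14 FPKM in WT and 4.01 to 5.33 after depletion. None of the markers in the table was at 0, and the other markers are not analysed here, so the labelled cell type could not be checked further. The part of these shifts in the results below was not tested, and in bulk RNA a change in the share of cells cannot be told apart from a change in RNA per cell.

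Each of the 6 immediate early genes was higher in every OGT-depleted library than in every WT library. The groups were separate in one direction or the other in 426 of 426 listed genes (100%), 178 of them lower after depletion. This separation is therefore not a result about the 6 genes. The fitted change ran from 1.44-fold for NR4A2 to 1.91-fold for FOS. Its median over the 6 genes was a log2 fold change of 0.77, against 0.90 over the 248 genes the authors' table lists as higher and 0.56 over all 426. The authors called 1.89% of about 13154 tested genes higher, and all 6 genes belong to that share because they were taken from it. In a refit of the counts with edgeR's quasi-likelihood test 4 of the 6 were called, namely FOS, FOSB, NR4A1 and DUSP1. The refit covered the 426 listed genes only, and its 214 higher calls are 50.2% of those and 86.3% of the 248 listed as higher. Nothing is read from that count, because it uses the contrast that put the genes in the table.

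FOS encodes the founding AP-1 subunit of its family and had the largest fitted change of the 6 with the size factors used here, although its SE range overlapped those of FOSB, NR4A1 and DUSP1. Its normalized read counts were 949 (WT replicate 1), 863 (WT replicate 2), 1870 (OGT-depleted replicate 1) and 1599 (OGT-depleted replicate 2), the order kept for all genes below. Both depleted libraries stood far above both WT libraries, with the lower depleted value 68.5% above the higher WT value. The change came to 0.94 ± 0.13 on the log2 scale (SE, n = 2 per group). That placed FOS 115th of the 426 genes by signed change, an order in which the 248 genes listed as higher come first. FOS lies on chromosome 14 (75745477 to 75748933, hg19, ENSG00000170345).

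FOSB encodes an AP-1 subunit close to FOS, and it was the most abundant of the 6. It had 2324 and 2307 normalized read counts in WT and 3771 and 3984 in depleted cells. The WT libraries were nearly equal, with a larger value only 1.01 times the smaller, and the depleted libraries were well clear of them. The change came to 0.74 ± 0.11 on the log2 scale (SE, n = 2 per group). FOSB is on chromosome 19 (45971253 to 45978437, hg19, ENSG00000125740) and overlaps ERCC1 on the opposite strand in GENCODE 29. No source used here states whether the counting used strand, and without strand the reads of the overlap belong to either gene.

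FOSL2 encodes FRA-2, an AP-1 subunit without the strong activation domain of FOS. Its normalized read counts were 628 and 754 in WT, then 968 and 1043 in depleted cells. The groups did not overlap, but the WT libraries differed by a factor of 1.20, the widest gap between WT libraries among the 6. The change came to 0.54 ± 0.13 on the log2 scale (SE, n = 2 per group). FOSL2 lies on chromosome 2 (28615315 to 28640179, hg19, ENSG00000075426).

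NR4A1, which encodes NUR77, was the least abundant of the 6 per length. It had 214 and 231 normalized read counts in WT and 393 and 416 in depleted cells. The lower depleted value was 70.4% above the higher WT value, the widest clearance between the groups among the 6 genes. The change came to 0.86 ± 0.15 on the log2 scale (SE, n = 2 per group). NR4A1 lies on chromosome 12 (52416616 to 52453291, hg19, ENSG00000123358).

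NR4A2, which encodes NURR1, had 671 and 749 normalized read counts in WT and 972 and 1075 after depletion. Its groups did not overlap, and its fitted change was the smallest of the 6, a change of 0.53 ± 0.13 on the log2 scale (SE, n = 2 per group). NR4A2 is also on chromosome 2 (157180944 to 157198860, hg19, ENSG00000153234), far from FOSL2. The third gene of the family, NR4A3, is not in the table and its level is not analysed here.

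DUSP1 encodes MKP-1, which dephosphorylates p38, JNK and ERK in the nucleus. Its normalized read counts were 743 and 823 in WT, then 1485 and 1247 in depleted cells. Both depleted libraries were above both WT libraries, although they differed from each other by a factor of 1.19, the widest gap between depleted libraries among the 6. The change came to 0.80 ± 0.13 on the log2 scale (SE, n = 2 per group). DUSP1 lies on chromosome 5 (172195093 to 172198198, hg19, ENSG00000120129).

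**Figure D1:**
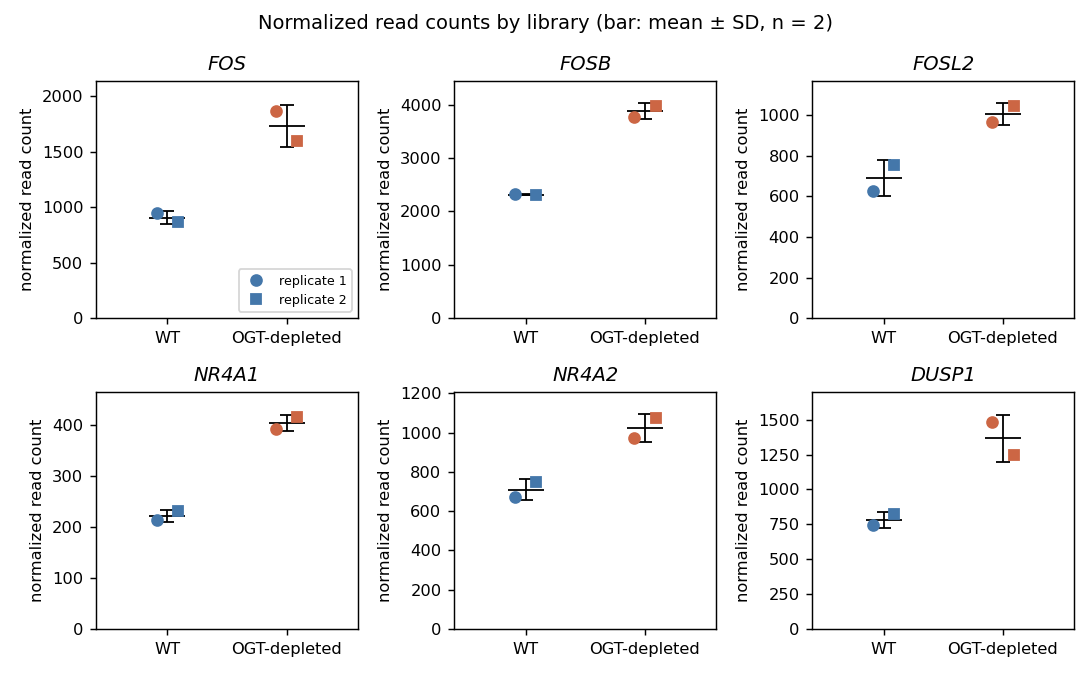
Normalized read counts of the 6 genes (y axes from 0) in the WT and OGT-depleted libraries; circles are replicate 1, squares replicate 2, and bars give the mean and SD (n = 2). In every panel both depleted libraries lie above both WT libraries, with the narrowest clearance in FOSL2 (28.4%) and NR4A2 (29.8%). The groups are separate, in one direction or the other, in all 426 listed genes.

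The adjusted p-values of the authors' deposited table, on which the genes were selected, cover a wide range. The authors' deposited table gives adjusted p-values of 1.78e-06 for FOS, 9.96e-06 for FOSB, 0.000217 for DUSP1 and 0.00386 for NR4A1. NR4A2 and FOSL2 entered just inside the limit of 0.05, with adjusted p-values of 0.0479 and 0.0495 in the authors' deposited table, at ranks 408 and 422 of 426. Genes just outside the limit are not analysed here. The deposited log2 fold changes are 0.82 for FOS, 0.69 for DUSP1 and NR4A1, 0.68 for FOSB and 0.46 for both FOSL2 and NR4A2 in the authors' deposited table.

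The size of these changes depended on how the libraries were scaled. With TMM factors taken from the listed genes the median log2 fold change of the 6 genes was 0.56, and it was 0.28 with median-ratio factors of DESeq2 from the same genes. Those scalings moved the median of all listed genes by -0.21 and -0.49, and both take their factors from genes selected as changed. All 6 genes kept a positive value under each of the 4 scalings, but with DESeq2 size factors NR4A2 had 0.04 ± 0.14 and FOSL2 0.05 ± 0.14 (SE). With those factors 1 of the 6, FOS, was called in the refit. Higher calls among the 426 genes were 77 with those factors, against 214 with the size factors used here. Scaling by library totals, a measure over all counted reads, put the median at 0.79. The median was 0.74 without WT replicate 1 and 0.80 without WT replicate 2. Either fit leaves 1 WT library, so no calls are given for it.

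**Figure D2:**
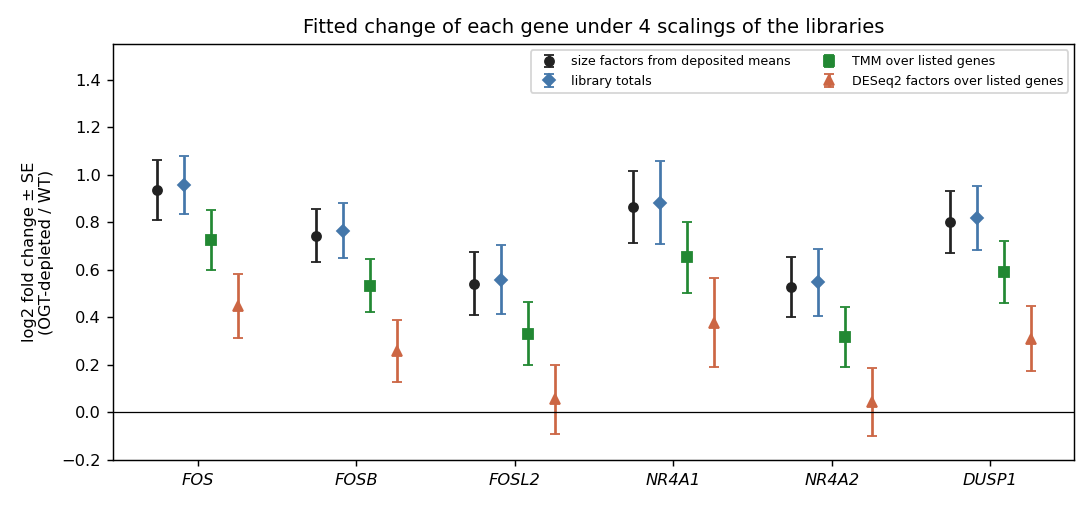
Log2 fold change with SE (y axis, OGT-depleted over WT) of each gene under 4 ways of scaling the libraries, from an edgeR fit over the 426 listed genes. All values are above 0, and those of FOSL2 and NR4A2 with DESeq2 factors over the listed genes (0.05 and 0.04) lie within their SE of 0.

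Compared per length, FOSB stood highest and NR4A1 lowest in each of the 4 libraries. FOSB was at 32.0 and 33.6 FPKM in WT and 53.0 and 58.4 after depletion. FOS was at 22.9 and 22.01 FPKM in WT and 46.0 and 41.0 after depletion, and DUSP1 at 19.1 and 22.4 in WT and 39.1 and 34.2 after depletion. FOS and DUSP1 changed places between the WT libraries, so their order is within the spread between replicates. NR4A2 followed with 10.0 and 11.9 FPKM in WT and 14.9 and 17.1 after depletion. FOSL2 was at 4.86 and 6.18 FPKM in WT and 7.66 and 8.60 after depletion, and NR4A1 at 2.30 and 2.62 in WT and 4.31 and 4.76 after depletion. From NR4A2 down the ranges of neighbouring genes did not overlap within either group. Together the 6 genes took 287 and 315 CPM (counts scaled to the library's total) in WT and 502 and 518 after depletion.

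Ratios between genes of the same library are free of any scaling between libraries, and 9 such ratios of FPKM were computed after the values had been seen. Between the receptors, NR4A1 was at 0.229 and 0.221 times NR4A2 in WT and at 0.290 and 0.278 times after depletion, so NR4A1 gained on NR4A2 in both depleted libraries. FOS was at 4.70 and 3.56 times FOSL2 in WT and at 6.004 and 4.77 times after depletion, where the groups only just separated. FOSB was at 6.58 and 5.44 times FOSL2 in WT and at 6.92 and 6.79 times after depletion. Within the FOS family, FOSB made up 53.6% and 54.4% of the summed FPKM of FOS, FOSB and FOSL2 in WT and 49.7% and 54.1% after depletion. The share of FOS also overlapped between the groups, at 38.3% and 35.6% in WT and 43.1% and 38.0% after depletion. FOSL2 held 8.14% and 10.0% in WT and a slightly smaller 7.18% and 7.97% after depletion. DUSP1 relative to FOS overlapped as well, at 0.838 and 1.02 in WT and 0.849 and 0.834 after depletion. FOS relative to FOSB overlapped too, at 0.714 and 0.654 in WT and 0.867 and 0.702 after depletion. So did FOSL2 relative to JUN and DUSP1 relative to DUSP6, with JUN and DUSP6 described below. By chance a ratio would separate 2 libraries from 2 in 33.3% of cases, so little is read from a separated ratio. None of these ratios was tested, since an exact permutation test of 2 libraries against 2 cannot give a p below 0.333.

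Differences between libraries of one group show how far these transcripts drifted without a change of group. They are not free of the selection. A call by p-value also depends on the spread within groups, so genes with wide replicate differences were less likely to be listed. The median size of the log2 difference between replicates was 0.14 in WT and 0.13 after depletion for the 6 genes, against 0.15 and 0.16 for all 426. Single genes differed between WT replicates by at most 0.26 (FOSL2) and between depleted replicates by at most 0.25 (DUSP1) in size. Each of these is smaller than the gene's own difference between groups with the size factors used here, which the selection favoured. The 6 genes did not drift as a block. FOS was lower in replicate 2 of both groups, by log2 differences of -0.14 and -0.23. FOSL2, NR4A1 and NR4A2 were higher in replicate 2 of both groups, while DUSP1 and FOSB changed sign between the groups.

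**Figure D3:**
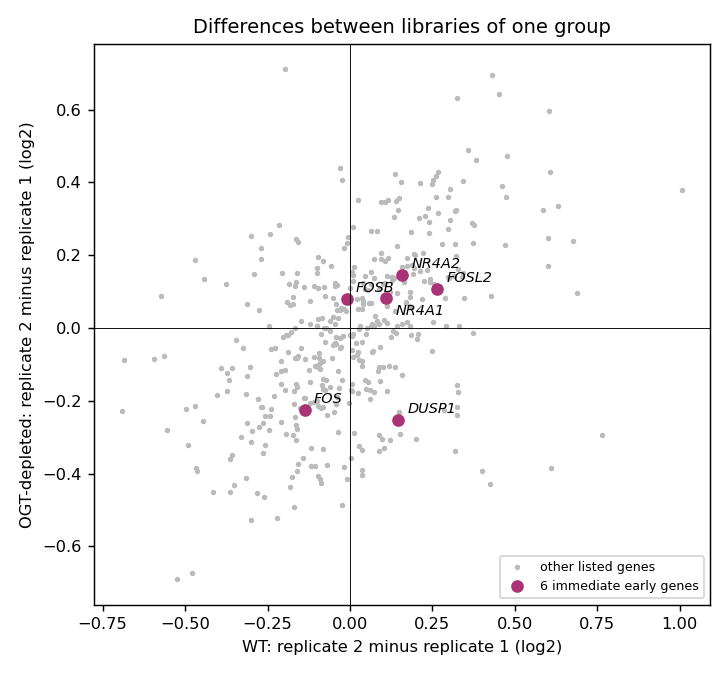
Log2 difference between replicate 2 and replicate 1 in WT (x axis) and in OGT-depleted cells (y axis) for the 426 listed genes, with the 6 immediate early genes named. The 6 genes lie inside the cloud of the other genes, between -0.25 and 0.26 on both axes.

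Outside these 6 genes, few genes of the related lists were in the table, each of them higher. Of 167 genes on 9 lists (AP-1 family, NR4A family, MAPK phosphatases, other immediate early genes, ERK feedback, cAMP and CREB, MAPK cascade, heat shock and mitochondrially encoded genes), 12 were in the table, the 6 genes above and 6 others. Without the 6 genes above, that is 6 of 161 (3.73%), against 3.24% of all tested genes called in either direction and 1.89% called higher, and how many of the 161 were tested is not known. The share in either direction is near the background, and nothing about the pathway is read from it. The table holds called genes only, and the level of a gene missing from it is unknown. The AP-1 list had 4 of 19 genes, all higher, and the added gene was JUN, the main partner of FOS proteins. JUN had 473 and 472 normalized read counts in WT and 791 and 685 after depletion, a change of 0.64 ± 0.14 on the log2 scale (SE, n = 2 per group). FOS was at 3.09 and 2.82 times the FPKM of JUN in WT and at 3.64 and 3.59 times after depletion, while FOSB relative to JUN overlapped between the groups.

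The MAPK phosphatase list had 2 of 10 genes, DUSP1 and DUSP6, the cytoplasmic phosphatase of ERK. DUSP6 had 583 and 637 normalized read counts in WT and 889 and 979 after depletion, a change of 0.61 ± 0.13 on the log2 scale (SE, n = 2 per group). Of 44 other immediate early genes 3 were in the table: SGK1, a serum- and glucocorticoid-induced kinase, ID2, an inhibitor of basic helix-loop-helix factors, and ZFP36L2, which binds AU-rich elements and promotes decay of the transcripts that carry them. Their log2 fold changes were 0.91 ± 0.15, 0.85 ± 0.14 and 0.56 ± 0.11 (SE). None of 13 ERK feedback genes, 19 cAMP and CREB genes and 34 MAPK cascade and SRF-partner genes was in the table. Of 13 heat shock genes 1 was there, DNAJB4, at 266 and 231 normalized read counts in WT and 386 and 428 after depletion, and of 12 mitochondrially encoded genes 0 were. Whether handling stress, known to raise immediate early and heat shock transcripts, has a part in these values was not tested.

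**Figure D4:**
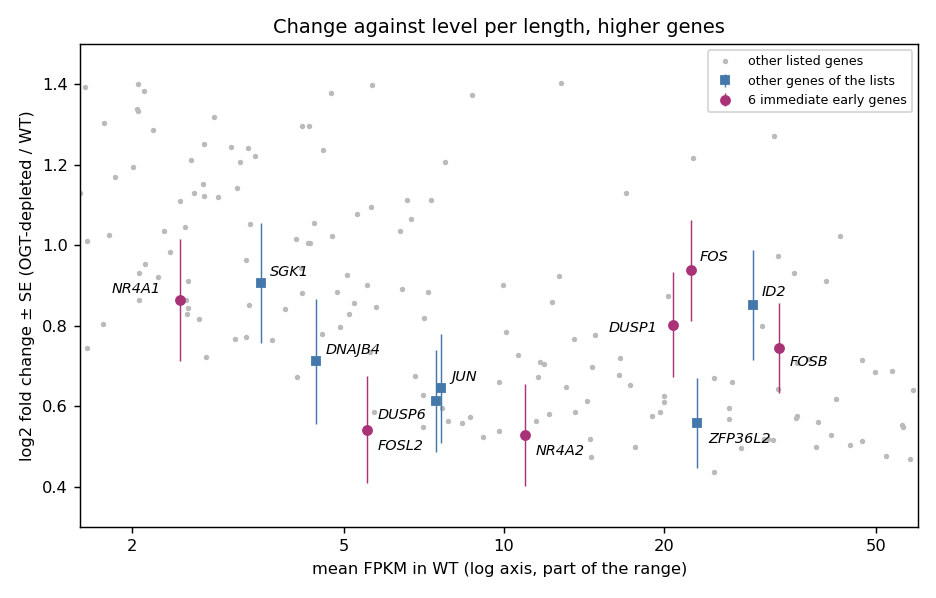
Log2 fold change with SE (y axis, OGT-depleted over WT) against mean FPKM in WT (log x axis) for genes listed as higher, with part of the range shown. The 6 immediate early genes and the 6 other genes of the lists lie at log2 fold changes of 0.53 to 0.94, inside the range of the other listed genes.

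The 5 other listed genes whose log2 normalized counts, centred over the 4 libraries, lay closest to the mean profile of the 6 genes were MS4A6A, LGALS3BP, ITGAV, ZC3H3 and IFIH1. Their Euclidean distances were 0.03, 0.05, 0.06, 0.08 and 0.08 on the log2 scale, against 0.10 (FOSB) to 0.30 (FOS) for the 6 genes themselves. The 5 were picked as the closest of 420 other listed genes and the 6 were not, so this is not a like comparison. MS4A6A, the closest, had 1653 and 1714 normalized read counts in WT and 2769 and 2767 after depletion. With 4 libraries, and a table of genes chosen on the same contrast, many profiles are alike in shape.

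The promoters were read for motifs because factors already in place at immediate early promoters receive the signal. RefSeq windows (GRCh38.p14) from 250 bases before to 50 after the gene start were matched by symbol for 5 of the 6 genes, with 2 start sites for NR4A1 and no entry for NR4A2. The stretch of 150 bases just before the start is shown for the 4 genes that hold the core TGACG of the cAMP response element, to which CREB and related factors bind. Capitals mark TGACG and TATAAA on either strand, and in DUSP1 also the full palindrome TGACGTCA.
FOS (chr14:75278678-75278827, plus strand): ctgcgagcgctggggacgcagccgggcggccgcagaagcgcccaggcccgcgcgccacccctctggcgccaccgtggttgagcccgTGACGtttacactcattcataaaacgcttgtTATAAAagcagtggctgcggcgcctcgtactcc
FOSB (chr19:45467846-45467995, plus strand): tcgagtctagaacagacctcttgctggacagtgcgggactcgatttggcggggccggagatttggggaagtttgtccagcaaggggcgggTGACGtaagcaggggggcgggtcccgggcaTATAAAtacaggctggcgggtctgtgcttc
FOSL2 (chr2:28392708-28392857, plus strand): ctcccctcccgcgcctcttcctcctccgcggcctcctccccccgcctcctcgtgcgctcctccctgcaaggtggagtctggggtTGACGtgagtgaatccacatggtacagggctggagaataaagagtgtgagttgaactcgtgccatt
DUSP1 (chr5:172771196-172771345, minus strand): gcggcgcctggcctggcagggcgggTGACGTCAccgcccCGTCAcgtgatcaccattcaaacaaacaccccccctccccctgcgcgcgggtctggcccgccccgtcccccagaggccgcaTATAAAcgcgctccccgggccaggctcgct

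TGACG was found in the windows of FOS, FOSB, FOSL2 and DUSP1, 4 of 5 genes, against 24.6% of all 35116 RefSeq windows and 31.6% of the 297 listed genes that had one. It began 64, 60 and 66 bases before the start of FOS, FOSB and FOSL2, nearly the same place in each, and FOSL2 had another match 201 bases before its start. DUSP1 had the full TGACGTCA, which contains TGACG on both strands, beginning 125 bases before its start, and 1.85% of all windows hold it. DUSP1 also had TGACG beginning 172 and 111 bases before its start. TATAAA lay 33, 30 and 30 bases before the start of FOS, FOSB and DUSP1, and 11.5% of all windows hold it. GGGCGG was in the windows of all 5 genes, but also in 45.0% of all windows and 70.4% of the listed genes. CACGTG was in DUSP1 alone of the 5 (7.26% of windows), and the AP-1 site TGAGTCA in FOSL2 alone, after its start (4.95%). The CArG box bound by SRF and the NR4A site AAAGGTCA were in none of the 5, which says only that these letters are absent from these windows. Both strands were searched, and a match is a description of the sequence, not of binding. Among other genes of the lists, JUN holds TGACG, beginning 123 bases before its start, and so does one window of DNAJB4, 120 bases before its start. The windows of ID2 and SGK1 held other motifs but no TGACG. No match of any searched motif was recorded for DUSP6 and ZFP36L2. Whether these genes had a window was not recorded, so no absence of a motif is read from this.

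**Figure D5:**
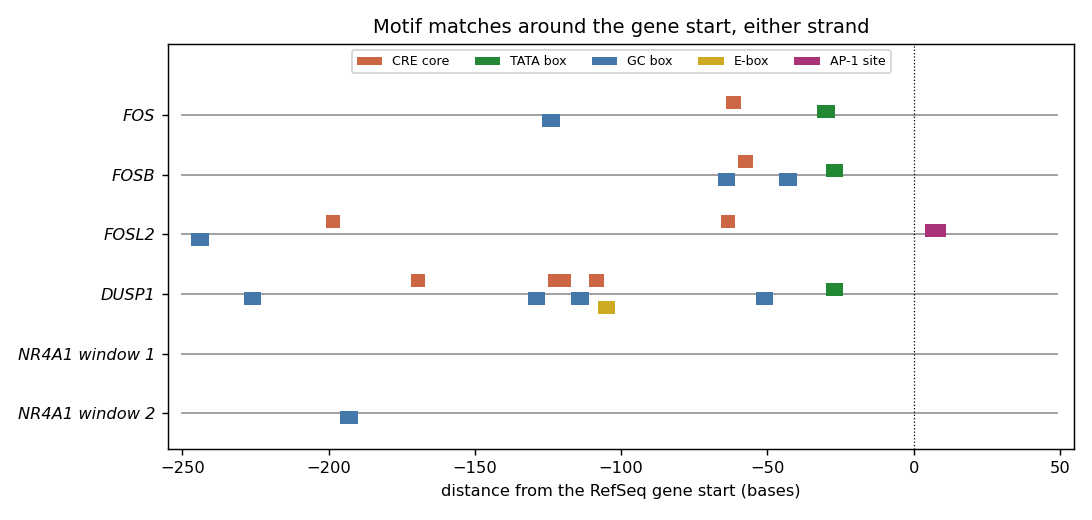
Motif matches on either strand (coloured boxes) by distance in bases from the RefSeq gene start (x axis) for 5 genes, with both windows of NR4A1. The cAMP response element core (CRE core) sits 60 to 66 bases before the start in FOS, FOSB and FOSL2, and the TATA box 30 to 33 bases before it in FOS, FOSB and DUSP1.

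The transcripts were also compared in their 3′ untranslated regions (UTRs), where AU-rich elements mark immediate early transcripts for rapid decay; this comparison was chosen after the expression values had been seen. In the GENCODE 29 transcript with the longest coding sequence, each of the 6 genes held at least 3 copies of the pentamer ATTTA. Of 19116 protein-coding genes 62.5% held at least 1 copy, with a median of 1 copy and a median 3′ UTR of 810 bases. The share of them with at least 3 copies was not computed, and the number of copies also depends on length. FOS had 5 in 806 bases, DUSP1 4 in 672, NR4A1 3 in 557, NR4A2 4 in 1312, FOSL2 9 in 4864 and FOSB 3 in 2166. The median density was 4.22 per kilobase in the 6 genes, 1.53 in the 218 higher listed genes with a 3′ UTR and 1.31 in 19116 protein-coding genes. FOS was the densest at 6.20 per kilobase, and FOSB, at 1.39, was close to the median of all genes. FOSL2, at 1.85, was near the median of 1.65 in all listed genes. The longer nonamer TTATTTATT was present in FOS, FOSL2 and DUSP1, 3 of 6 genes, against 8.72% of the higher listed genes and 7.13% of all protein-coding genes. Presence was not adjusted for length, and FOSL2 had 1 nonamer in 4864 bases. These sites are shown with the nonamer in capitals, since they are the longest form of the element searched, with positions counted from 1 at the first base after the stop codon.
FOS, bases 638 to 662 of the 3′ UTR: tttttaatTTATTTATTaagatgga
FOSL2, bases 3909 to 3933 of the 3′ UTR: ttattttaTTATTTATTttaaatgt
DUSP1, bases 93 to 117 of the 3′ UTR: gctggtccTTATTTATTtaacttca
DUSP1, bases 361 to 385 of the 3′ UTR: aatataccTTATTTATTtttgtgta

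No relation with the size of the change was tested over 6 genes. The median genomic span was 12551 bases in the 6 genes, 28452 in all listed genes and 23979 in those listed as higher. The 6 spans were uneven, from 3106 bases in DUSP1 and 3457 in FOS to 24865 in FOSL2 and 36676 in NR4A1, the last of these above both medians. Exons numbered 8 in NR4A1 and NR4A2 and 4 in the other 4 genes, against a median of 9 in all listed genes and 7 in those listed as higher. Their median gene length in the deposited table, 3624 bases, was close to the 3538 of all listed genes. DUSP1 and FOS were the shortest at 2019 and 2158 bases, and FOSL2 the longest at 6708. In GENCODE 29, FOSL2, NR4A1 and DUSP1 also overlap noncoding genes on the opposite strand. FOSL2 overlaps a further one on its own strand, the sense intronic AC104695.3, which counting by strand would not separate, while FOS and NR4A2 overlap no other gene.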

How the data were processed

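RNA of 2 WT and 2 OGT-depleted MEG-01 libraries was analysed, grouped by title. Per the file headers, the authors deposited raw read counts and FPKM values per library for called genes, the group means (a normalized signal), their log2 fold changes, p-values and adjusted p-values. CASAVA 1.8, STAR 2.5, TopHat, DESeq2 and hg19 are named, without roles, in the submitters' processing notes; no source used here gives the counter, annotation or strand setting. Columns headed OGTi were matched to the CR_OGT titles by number. The deposited CR_OGT group mean is reproduced from the counts of these columns, so they belong to that group. No source explains the heading OGTi, and which column is which replicate rests on the number alone.

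Library totals were recovered from count, length and FPKM, and size factors (0.950, 0.971, 1.06 and 1.04 in WT replicates 1 and 2 and OGT-depleted replicates 1 and 2) from the deposited group means. TMM over called genes would assume most of them unchanged, so it served as an alternative. edgeR 4.0.16 (glmQLFit, glmQLFTest; R 4.3.3) was fitted to the 426 genes, with Benjamini-Hochberg adjustment over 13154 tested genes, a number recovered from the deposited p-values, and calls at 0.05. Standard errors were taken as the absolute log2 change divided by the root of the F statistic. The spread behind them was shared in part across the 426 listed genes. Genes with wide replicate differences were less likely to be listed, so these errors may be too small. The code was tested on simulated data. Alternatives used DESeq2 1.42.0 and limma 3.58.1. The members and all lists were chosen with earlier results of these data known. Named genes were the 6 members, OGT, list members in the table and the 5 nearest profiles. Protein sequences were not used here.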

Additional observations from a re-analysis of the deposited data

How the results depend on the processing

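Over 12 alternative fits the log2 fold change of each of the 6 genes stayed positive, from 0.04 (NR4A2, DESeq2 size factors from the listed genes) to 1.05 (FOS, without OGT-depleted replicate 2). It moved by less than the spread between replicates in 59 of 72 gene-by-setting values. The other 13 were the TMM and DESeq2 size factors for all 6 genes and, for NR4A1 (0.68), limma with a pseudocount of 1. The count of 59 does not measure robustness, because several settings could hardly move the value. Leaving out a library shifts a group mean by less than this spread, and the filter removed no gene. The median of the 6 genes, 0.77, was 0.56 with TMM factors and 0.28 with DESeq2 size factors. The refit called 4 of the 6 genes, with 214 higher calls among the 426. With DESeq2 size factors it called 1 of the 6, with 77 higher calls among the 426. The DESeq2 Wald test called all 6, with 245 higher calls among the 426. Calls are not given with a library left out, where the lone library is assumed to vary like the others. The median of the 6 genes was then 0.73 to 0.80. With the replicate number as a block, 0 of the 6 genes and 0 of all 426 were called, so this count is not particular to the 6. In that edgeR fit 4 of the 6 had an adjusted p of 0.0629, and the median was 0.77. Deviations of same-numbered libraries correlated with r = 0.50 across the 426 genes, which are not independent, but with 2 pairs a shared number does not show a pairing. Restricting promoter windows to the 250 bases before the start left TGAGTCA in 0 of 5 genes. Alternatives without the filter changed nothing. With 2 libraries per group, and called genes only, the unchanged genes that would anchor the scaling are not analysed here.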
